A study of Mus musculus with 6 samples.

Results

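Interferon-stimulated genes are the genes that cells switch on when they sense interferon, and 37 of them, listed by name, are described here in mouse mammary tumours. All array probes whose annotated symbol was one of the 37 were taken. The annotation gave 70 probes for 36 of the genes and none for Ifi44, and 54 of these probes, for 32 genes, passed the filter on dim probes (above the background limit on at least 3 arrays), out of 12864 genes tested on the arrays. Ifit1, Oas1a, Oas3 and Xaf1 had probes above the background limit on at most 2 of 6 arrays and were not tested. The arrays held RNA of 3 PyMT/ETP tumours, which the labels also call PyMT/C5, and of 3 PyMT control tumours. All 6 tumours came from female mice of the pure FVB strain at 12 weeks of age, and all carried the PyMT transgene, in which the mouse mammary tumour virus promoter drives the middle T antigen of polyomavirus in the epithelium of the mammary gland. The PyMT/ETP tumours carried in addition a transgene for endotrophin, the fragment cleaved from the carboxy-terminal end of the collagen VI alpha 3 chain. None of the probes was assigned to Col6a3, the gene of that chain, so the transgene was not checked here. The comparison asks how the transgene goes along with transcript levels in these tumours. Whether every array stands for its own mouse is not given in the labels, so the p-values reflect only how far these samples spread, which may be technical.

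Type I interferons bind a shared cell-surface receptor whose kinases, Jak1 and Tyk2, activate the factor ISGF3. ISGF3, which holds Stat2 and Irf9, binds the interferon-stimulated response element in promoters. Interferon gamma uses another receptor, and its signal reaches promoters at the gamma-activated site. The induced proteins sense foreign nucleic acid, block viral translation and replication, modify other proteins with ISG15, or restrain the pathway. In tumours the same genes can be induced without a virus, by DNA or RNA of the cell itself that reaches the cytoplasm.

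The response elements are the sequence feature that ties the listed genes to the pathway. The stretch before the start site is shown for Isg15, Ifit3 and Rsad2, which were low in 1 tumour, and for Irf1, which was not. These genes were picked by their values and do not stand for the rest. Other genes without the response element core were low in that tumour too. Each stretch is 150 bases long, ends just before the start site and is written on the strand of the gene. The stretches come from RefSeq's GRCm38.p6 assembly of C57BL/6J, not from FVB mice. Capitals mark every match within the stretch to a core of the response element (GAAA, any 2 bases, GAAA) or to TTCNNNGAA, a core of the gamma-activated site, searched on both strands. The positions are chr4:156200819-156200968 (minus strand) for Isg15, chr19:34583379-34583528 (plus strand) for Ifit3, chr12:26456453-26456602 (minus strand) for Rsad2 and chr11:53769864-53770013 (plus strand) for Irf1.
Isg15: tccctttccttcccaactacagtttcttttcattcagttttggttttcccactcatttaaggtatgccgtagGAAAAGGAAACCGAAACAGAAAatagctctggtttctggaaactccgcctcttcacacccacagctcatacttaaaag
Ifit3: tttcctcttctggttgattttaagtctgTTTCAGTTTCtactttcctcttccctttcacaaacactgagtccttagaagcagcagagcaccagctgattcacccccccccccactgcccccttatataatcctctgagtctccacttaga
Rsad2: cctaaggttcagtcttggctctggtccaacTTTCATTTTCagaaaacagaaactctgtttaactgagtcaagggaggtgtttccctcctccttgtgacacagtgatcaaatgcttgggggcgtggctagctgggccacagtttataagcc
Irf1: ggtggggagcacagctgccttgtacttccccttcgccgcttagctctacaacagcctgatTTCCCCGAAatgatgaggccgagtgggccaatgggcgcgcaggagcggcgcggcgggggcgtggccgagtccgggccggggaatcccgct

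In Isg15, 3 overlapping matches to the response element core ran from 78 to 57 bases before the start site. In Rsad2 the match lay 120 to 111 bases before it, and in Ifit3 it lay 122 to 113 bases before it, with a second one from 156 to 147 that starts upstream of the stretch shown. In Irf1 the match to the gamma-activated site core lay 90 to 82 bases before the start site. The RefSeq table held promoter windows, 250 bases before to 50 after the start, for 28 of the 37 genes. Of these 28, 17 (60.7%) held the response element core, against 3.99% of the 27025 genes in the table, and 8 (28.6%) held the gamma-activated site core, against 9.55%. A match is a description of the letters, not a binding site, and no match says only that these letters are not in this window.

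None of the 32 tested interferon-stimulated genes differed beyond the spread between tumours when PyMT/ETP was set against PyMT control. The limma fit called 0 of them after Benjamini-Hochberg adjustment over the 12864 genes, with a lowest adjusted p of 0.997. The share called over all genes was 0.0%. At an unadjusted p of 0.05, 0 of the 32 passed, against 4.31% of all genes. By group means 24 of the 32 were lower and 8 higher in PyMT/ETP tumours, where 49.2% of all genes were lower, and the median log2 difference was -0.11, against 0.00 over all genes. The values of PyMT/ETP and PyMT control tumours did not overlap for 1 gene, Ifi35, which was lower in PyMT/ETP tumours. Such a gap was found for 8.17% of all genes, with PyMT/ETP tumours below in 3.65% and above in 4.52%. The single differences ran from -0.59 (Oas2) to 0.36 (Zbp1). The median 95% confidence interval reached 0.56 log2 units to either side for these genes and 0.39 for all genes.

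The spread lay within the PyMT/ETP group, where replicate 1 stood apart. That tumour had the lowest of the 6 values for 25 of the 32 genes (78.1%), against 16.2% of all genes tested. PyMT/ETP replicate 2 was lowest for 0 genes and replicate 3 for 2, and PyMT control replicates 1, 2 and 3 were lowest for 1, 1 and 3. When each tumour was set against the mean of the other 5, the median distance of the 32 genes was -0.68 log2 units in PyMT/ETP replicate 1, 0.26 in replicate 2 and 0.12 in replicate 3. It was 0.28, 0.08 and -0.08 in PyMT control replicates 1, 2 and 3. Over all genes this median was 0.01 in PyMT/ETP replicate 1. A distance of more than 1 log2 unit below the other 5 was seen for 7 of the 32 genes in PyMT/ETP replicate 1, against 0.684% of all genes, and for 0 in any other tumour. A distance of more than 0.5 was seen there for 17 of the 32, against 4.68% of all genes. The SD was larger in PyMT/ETP than in PyMT control tumours for 25 of the 32 genes, against 46.4% of all genes. Within PyMT/ETP tumours 16 of the 32 genes spread over more than 1 log2 unit, against 4.31% of all genes. Within PyMT control tumours 0 did, against 4.87%. The arrays had been made equal in their distribution, so the low level in this tumour is relative to its other genes.

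**Figure D1:**
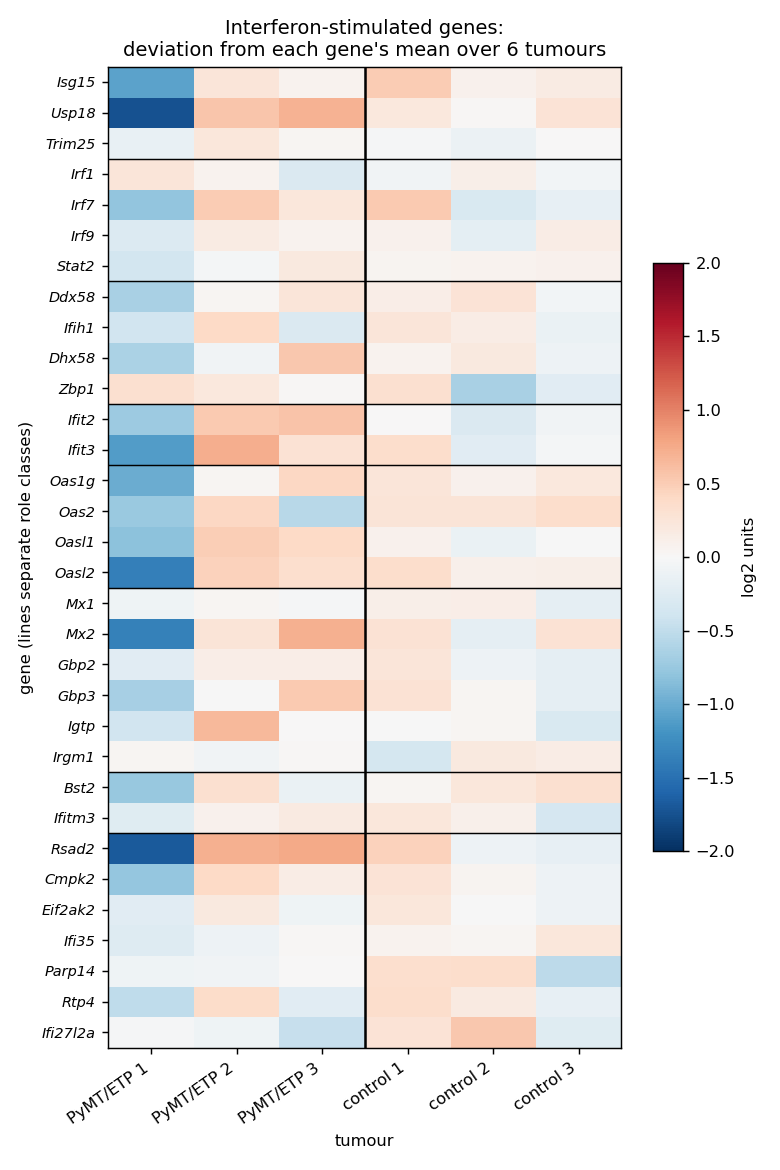
Deviation of each interferon-stimulated gene (rows, grouped by role) from its mean over the 6 tumours, in log2 units, with PyMT/ETP tumours left of the black line and PyMT control tumours right of it. The column of PyMT/ETP replicate 1 is blue, below the mean, in most rows, and 25 of the 32 genes had their lowest value there.

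**Figure D2:**
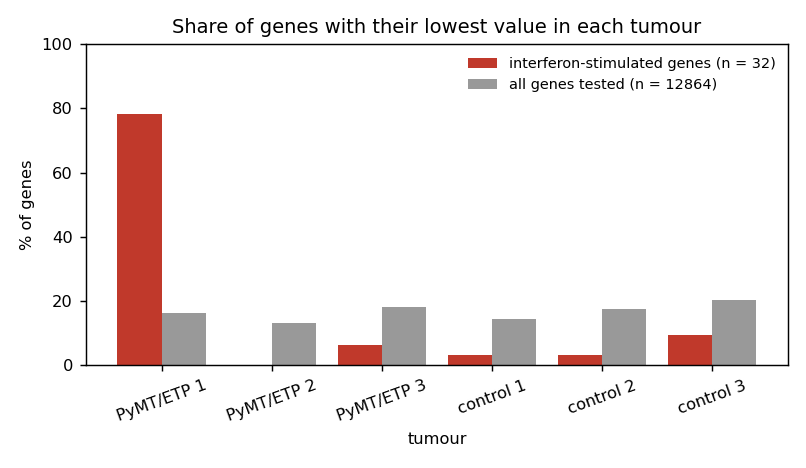
Percentage of genes whose lowest value fell in each tumour, for the 32 interferon-stimulated genes (red) and all 12864 genes tested (grey). PyMT/ETP replicate 1 held 78.1% of the interferon-stimulated genes and 16.2% of all genes.

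The ISG15 system modifies proteins with a ubiquitin-like tag. Isg15 is the tag, Usp18 removes it and also blocks signalling at the type I interferon receptor, and Trim25 is a ubiquitin ligase that activates the RNA sensor RIG-I. Levels are given as log2 of the background-corrected intensity. Isg15 was at 6.88, 8.20 and 8.02 log2 units in PyMT/ETP replicates 1, 2 and 3, against 8.46, 8.04 and 8.11 in PyMT control tumours. Usp18 was at 6.14, 8.45 and 8.58 in PyMT/ETP tumours, against 8.09, 7.90 and 8.15 in PyMT control tumours. For both genes PyMT/ETP replicate 1 lay below all other tumours, and the other two PyMT/ETP tumours overlapped the controls for Isg15 and lay above them for Usp18. The level of Usp18 in PyMT/ETP replicate 1 was 4.27-fold below the mean of the other 5, the largest distance of the 32 genes, and its second probe gave a distance of -1.43 log2 units. Usp18 averaged 7.72 ± 1.37 in PyMT/ETP tumours and 8.05 ± 0.13 in PyMT control tumours (SD, n = 3 each). The log2 difference between the groups was -0.51 (SE 0.32) for Isg15 and -0.33 (SE 0.56) for Usp18. Trim25 was at 10.19, 10.57 and 10.39 in PyMT/ETP tumours, against 10.32, 10.23 and 10.36 in PyMT control tumours, so the groups overlapped within 0.38 log2 units.

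Among the transcription factors, Irf7, which amplifies type I interferon production, varied most. Irf7 was at 6.46, 7.76 and 7.47 in PyMT/ETP tumours, against 7.78, 6.95 and 7.09 in PyMT control tumours. The ISGF3 components Stat2 and Irf9 were also lowest in PyMT/ETP replicate 1, at distances of -0.45 and -0.33 log2 units from the other 5 tumours. Irf1, which responds strongly to interferon gamma, did not share this: it was at 10.85, 10.68 and 10.33 in PyMT/ETP tumours, against 10.54, 10.73 and 10.56 in PyMT control tumours, highest in PyMT/ETP replicate 1. Of the 5 tested Irf1 probes, 1, close to background, was lowest in that tumour. By the brightest probes, the log2 group differences were -0.04 for Irf7, -0.03 for Irf9, -0.15 for Stat2 and 0.01 for Irf1. The 95% confidence interval of each spanned 0. A dimmer Irf1 probe was at 6.934, 6.733 and 6.785 in PyMT/ETP tumours, against 6.729, 6.295 and 6.287 in PyMT control tumours. Another was at 6.93, 7.07 and 6.59, against 6.56, 6.54 and 6.50, so on both PyMT/ETP lay above all controls. Such a gap was found for 3 of the 54 tested probes of the listed genes and for 1232 of all 24893 probes tested. By the brightest probe of each gene it was found for 4.52% of all genes. Limma called 0 of the 54 probes.

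The sensors bind foreign or misplaced nucleic acid: Ddx58 encodes RIG-I, Ifih1 encodes MDA5, Dhx58 encodes LGP2, and Zbp1 recognises nucleic acid in the Z form. Dhx58 was at 7.06, 7.62 and 8.23 in PyMT/ETP tumours, against 7.76, 7.89 and 7.58 in PyMT control tumours. All 3 tested Dhx58 probes were lowest in PyMT/ETP replicate 1, with distances of -1.31 to -0.75. Ddx58 lay -0.78 log2 units from the other 5 in that tumour. Ifih1 was dim, above the background limit in 1 of 3 PyMT/ETP tumours. Zbp1 had the highest log2 difference of the 32 genes, 0.36 (SE 0.24). Its brightest probe was at 6.57, 6.46 and 6.27 in PyMT/ETP tumours, against 6.58, 5.61 and 6.03 in PyMT control tumours, which overlap. Its other 2 probes, both close to background, were lowest in PyMT/ETP replicate 1, so the probes of Zbp1 disagree.

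The IFIT proteins bind viral RNA and hold back its translation. Ifit3 was at 6.83, 8.68 and 8.23 in PyMT/ETP tumours, against 8.30, 7.72 and 7.92 in PyMT control tumours. Ifit2 was at 5.90, 7.15 and 7.19 in PyMT/ETP tumours, against 6.63, 6.34 and 6.56 in PyMT control tumours. Both genes had their extremes within the PyMT/ETP group, with replicate 1 below all controls and replicate 2 above all controls, and both probes of each gene were lowest in replicate 1. The mouse genome holds a near copy of Ifit3, Ifit3b, and whether these probes tell them apart was not tested. The log2 differences between the groups were -0.07 (SE 0.42) for Ifit3 and 0.24 (SE 0.32) for Ifit2.

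The OAS enzymes make the 2'-5' oligoadenylate that activates RNase L, and the OAS-like proteins act on sensing and on Irf7 translation. Oasl2 was at 8.26, 10.09 and 9.97 in PyMT/ETP tumours, against 9.99, 9.73 and 9.75 in PyMT control tumours. Oas1g was at 6.27, 7.31 and 7.67 in PyMT/ETP tumours, against 7.50, 7.35 and 7.47 in PyMT control tumours. Oasl1 was at 5.50, 6.80 and 6.71 in PyMT/ETP tumours, against 6.40, 6.18 and 6.30 in PyMT control tumours. In these 3 genes, by the brightest probe, the control tumours lay close together. PyMT/ETP replicate 1 lay 1.98-fold to 3.13-fold below the mean of the other 5. Dim probes of Oasl1 and Oasl2 did not share this, with distances of 0.19 and -0.0078. That Oasl2 probe was at 4.67, 5.49 and 4.70 in PyMT/ETP tumours, against 4.29, 4.64 and 4.29 in PyMT control tumours. On it, close to background, PyMT/ETP lay above all controls, as on the dimmer Irf1 probes above. Oas2 differed in pattern: it was at 6.63, 7.78 and 6.80 in PyMT/ETP tumours, against 7.63, 7.63 and 7.72 in PyMT control tumours, so PyMT/ETP replicates 1 and 3 were both low. Oas2 had the lowest log2 difference of the 32 genes, -0.59 (SE 0.28), for which limma gave an unadjusted p of 0.0627 and, adjusted, 0.997. The Oas1 genes are close copies of each other, and whether the Oas1g probes tell them apart was not tested.

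Interferon-induced GTPases include the Mx proteins, which trap viral components, and the guanylate-binding and immunity-related GTPases, which act on pathogen vacuoles and respond strongly to interferon gamma. Mx2 was at 5.51, 7.12 and 7.58 in PyMT/ETP tumours, against 7.16, 6.69 and 7.15 in PyMT control tumours. Gbp3 was at 6.79, 7.45 and 7.97 in PyMT/ETP tumours, against 7.74, 7.49 and 7.27 in PyMT control tumours. Igtp was at 7.59, 8.63 and 7.97 in PyMT/ETP tumours, against 7.96, 8.01 and 7.67 in PyMT control tumours. All 3 were lowest in PyMT/ETP replicate 1, Mx2 by the widest margin of the 3, and the other PyMT/ETP tumours overlapped the controls. Irgm1 varied little: it was at 12.24, 12.13 and 12.22 in PyMT/ETP tumours, against 11.85, 12.39 and 12.35 in PyMT control tumours. A dimmer Irgm1 probe was lowest in PyMT/ETP replicate 1, at a distance of -0.52. Gbp2 lay -0.27 from the other 5 in that tumour, and Mx1, which is defective in many laboratory mouse strains, stayed near the background limit.

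The membrane factors Bst2, which tethers budding virus, and Ifitm3, which blocks virus entry, differed in pattern. Bst2 was at 6.40, 7.48 and 7.02 in PyMT/ETP tumours, against 7.20, 7.38 and 7.47 in PyMT control tumours. Ifitm3 was at 12.07, 12.39 and 12.49 in PyMT/ETP tumours, against 12.54, 12.40 and 11.97 in PyMT control tumours, lowest in a control. Rsad2, which encodes viperin, and its genomic neighbour Cmpk2, a nucleotide kinase, had like profiles. Rsad2 was at 6.62, 9.01 and 9.06 in PyMT/ETP tumours, against 8.76, 8.20 and 8.14 in PyMT control tumours. Cmpk2 was at 7.02, 8.19 and 7.95 in PyMT/ETP tumours, against 8.08, 7.85 and 7.70 in PyMT control tumours. Rsad2 in PyMT/ETP replicate 1 was 4.04-fold below the mean of the other 5, while replicates 2 and 3 lay above all controls. Rsad2 averaged 8.23 ± 1.39 in PyMT/ETP tumours and 8.37 ± 0.34 in PyMT control tumours (SD, n = 3 each). The log2 difference between the groups was -0.14 for Rsad2, with a 95% confidence interval from -1.47 to 1.19, the widest interval of the 32 genes.

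Among the remaining genes, the kinase gene Eif2ak2, which encodes PKR, was at 9.91, 10.33 and 10.05 in PyMT/ETP tumours, against 10.36, 10.13 and 10.03 in PyMT control tumours. Ifi27l2a, a small membrane protein gene, was at 9.84, 9.78 and 9.40 in PyMT/ETP tumours, against 10.13, 10.41 and 9.62 in PyMT control tumours. Ifi27l2a was not lowest in PyMT/ETP replicate 1, and its log2 difference of -0.38 (SE 0.22) stayed negative with each tumour left out in turn. So did the differences of Isg15, Ifih1, Oas2, Bst2, Ifi35 and Rtp4, all lowest in PyMT/ETP replicate 1. Ifi35 was lower in every PyMT/ETP tumour than in every control, at 7.21, 7.37 and 7.49 against 7.53, 7.50 and 7.69, by a log2 difference of -0.22 (SE 0.14) that did not pass. Parp14, an ADP-ribosyltransferase gene, was lowest in PyMT control replicate 3. Rtp4 was lowest in PyMT/ETP replicate 1, at -0.61 from the other 5, a sign that its second, dimmer probe did not share. Of the 15 genes with 2 or more tested probes, 10 had every probe below the mean of the other 5 in PyMT/ETP replicate 1.

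**Figure D3:**
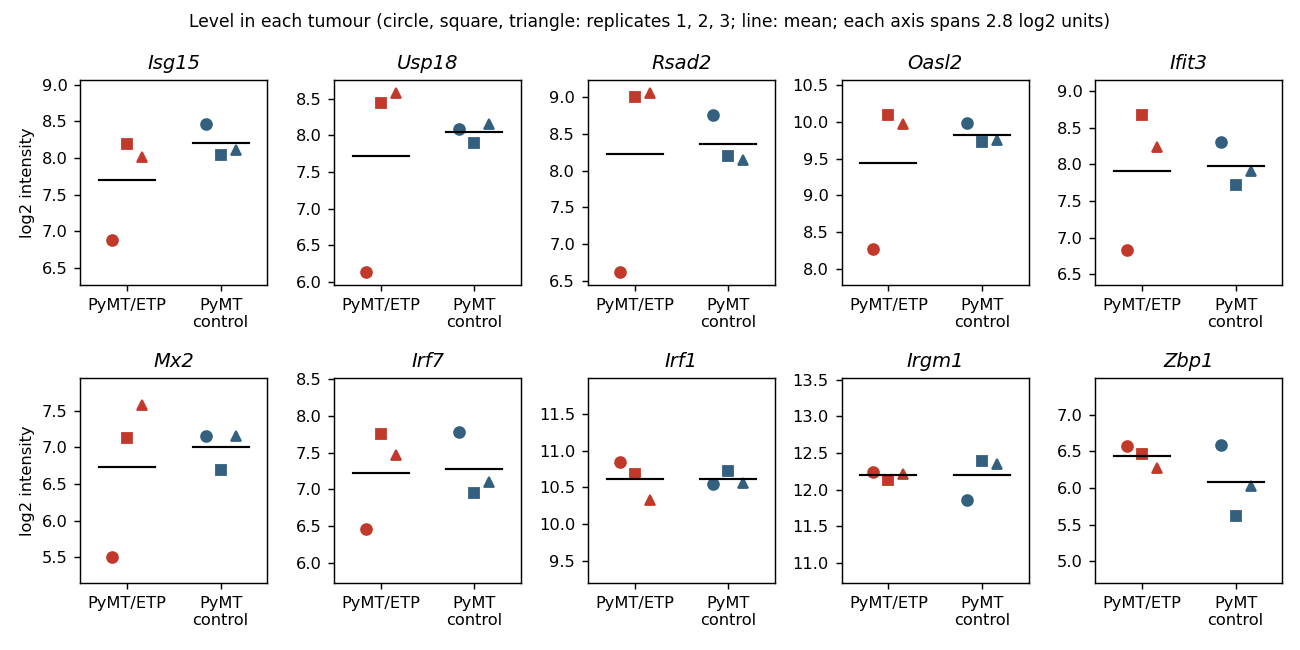
Log2 intensity of 10 genes in PyMT/ETP (red, left) and PyMT control tumours (blue, right), 1 symbol per replicate, with the group mean as a line and each axis spanning the same range. For Isg15, Usp18, Rsad2, Oasl2, Ifit3, Mx2 and Irf7 the PyMT/ETP circle (replicate 1) lies below every other tumour, and for Irf1, Irgm1 and Zbp1 it does not.

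Because 1 tumour carried the spread, the comparison was read with and without it. That tumour was picked by the values of these same genes. Leaving it out therefore raises the PyMT/ETP mean of each gene that was low there. The counts without it, also those set beside all genes, are a description and no support for a difference between the groups. Without PyMT/ETP replicate 1, 21 of the 32 genes were higher and 11 lower in PyMT/ETP tumours, and the median log2 difference was 0.12, against -0.11 with all 6 tumours. Again 0 genes were called by limma, and over all genes the share called was 0.0%. At an unadjusted p of 0.05 there were 4 genes, Usp18, Ifit2, Oasl1 and Rsad2, or 12.5%, against 3.7% of all genes. All 4 were higher in the remaining PyMT/ETP tumours, with log2 differences of 0.46, 0.66, 0.46 and 0.67. The sign of the difference turned for 15 of the 32 genes. PyMT/ETP replicates 2 and 3 both lay above all 3 PyMT control tumours for 5 of the 32 genes, against 8.48% of all genes. Without PyMT/ETP replicate 2 or 3 instead, 3 and 5 genes were higher, and the median was -0.21 in both cases. Without PyMT control replicate 1, 15 were higher and 17 lower.

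**Figure D4:**
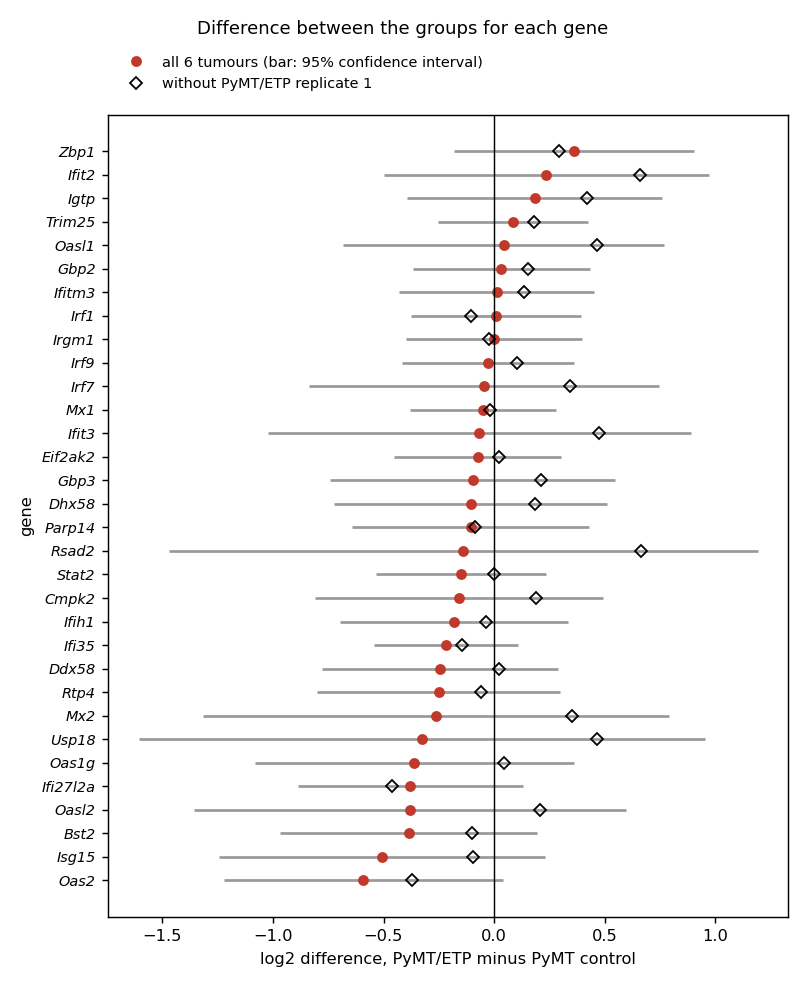
Log2 difference, PyMT/ETP minus PyMT control, of each of the 32 genes with all 6 tumours (red, with 95% confidence interval) and without PyMT/ETP replicate 1 (open diamonds). Every interval spans 0, and most diamonds lie right of the red points.

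The low level in PyMT/ETP replicate 1 was seen in genes with and without the core of the response element in the promoter. Of the tested genes with a promoter window, 14 held the core, and their distance from the other 5 tumours ran from -2.01 (Rsad2) to 0.05 (Irgm1), with a median of -0.62. The 9 without it ran from -1.64 (Oasl2) to 0.28 (Irf1), with a median of -0.87. PyMT/ETP replicate 1 was the lowest tumour for 12 of the 14 and for 8 of the 9. No test was made of this difference.

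The lists of genes upstream of the response are read against all genes tested, of which 50.8% were higher in PyMT/ETP tumours and 16.2% were lowest in PyMT/ETP replicate 1. Of 11 receptor and JAK-STAT genes, 9 were tested, of which 8 were higher and 1 lower in PyMT/ETP tumours, 0 passed, and 0 were lowest in PyMT/ETP replicate 1. The type I receptor chain Ifnar2 was at 6.83, 6.89 and 6.68 in PyMT/ETP tumours, against 6.49, 6.48 and 6.56 in PyMT control tumours, and the interferon gamma receptor chain Ifngr2 had a log2 difference of 0.21. Of 19 sensing adaptors and kinases, 15 were tested, with 11 higher and 4 lower, a median of 0.06, and 1 lowest in PyMT/ETP replicate 1. The transcription factor Irf8 and the Toll-like receptor chaperone Unc93b1 had differences of 0.30 and 0.20. Of 12 negative regulators, 11 were tested, with 7 higher and 4 lower, and 2 (18.2%) were lowest in PyMT/ETP replicate 1. The phosphatases Ptpn6 and Ptpn2, both on this list, had log2 differences of 0.24 and -0.28. None of the named genes in these lists passed in limma's test.

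Interferon transcripts themselves were at or near background. Of 21 interferon genes 8 were tested, and the interferons beta and gamma, Ifnb1 and Ifng, were not among them. Ifna12 stayed under the background limit on all PyMT/ETP arrays and was at least 1.19-fold higher in PyMT control tumours (limma adjusted p 0.997). Ifnz had a log2 difference of 0.29.

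Of 55 further interferon-stimulated genes outside the 37, 39 were tested, 24 higher and 15 lower in PyMT/ETP tumours, with a median of 0.05 and 0 called, and 14 (35.9%) were lowest in PyMT/ETP replicate 1, against 16.2% of all genes. The genes of smallest p were Parp9, with a log2 difference of 0.44, and Oas1d, with 0.39. Among those low in PyMT/ETP replicate 1, named after their values were seen, the apolipoprotein L gene Apol9a was at 6.36, 7.55 and 7.95 in PyMT/ETP tumours, against 7.98, 7.35 and 7.90 in PyMT control tumours. The genes Apol9b and Isg20, an exonuclease gene, lay -1.29 and -1.08 from the other 5 in that tumour. The peptide transporter gene Tap1 was at 5.77, 6.70 and 6.78 in PyMT/ETP tumours, against 6.32, 6.64 and 6.51 in PyMT control tumours.

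Of 26 genes listed as induced by interferon gamma, 17 were tested, 12 higher and 5 lower in PyMT/ETP tumours. Of the 17, 0 were called and 2 were lowest in PyMT/ETP replicate 1. The list is not exclusive to interferon gamma: Ifi47 was also among the further genes, and Socs1 was also among the negative regulators. The chemokine gene Cxcl9, a ligand of Cxcr3, was at 6.55, 5.65 and 5.42 in PyMT/ETP tumours, against 5.20, 5.19 and 5.27 in PyMT control tumours, highest in the tumour where Isg15, Usp18 and Rsad2 were lowest. Its log2 difference was 0.65 (SE 0.27), or 0.31 without PyMT/ETP replicate 1, and did not pass. The GTPase gene Irgm2 was at 8.29, 8.60 and 8.29 in PyMT/ETP tumours, against 8.23, 7.84 and 8.01 in PyMT control tumours.

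**Figure D5:**
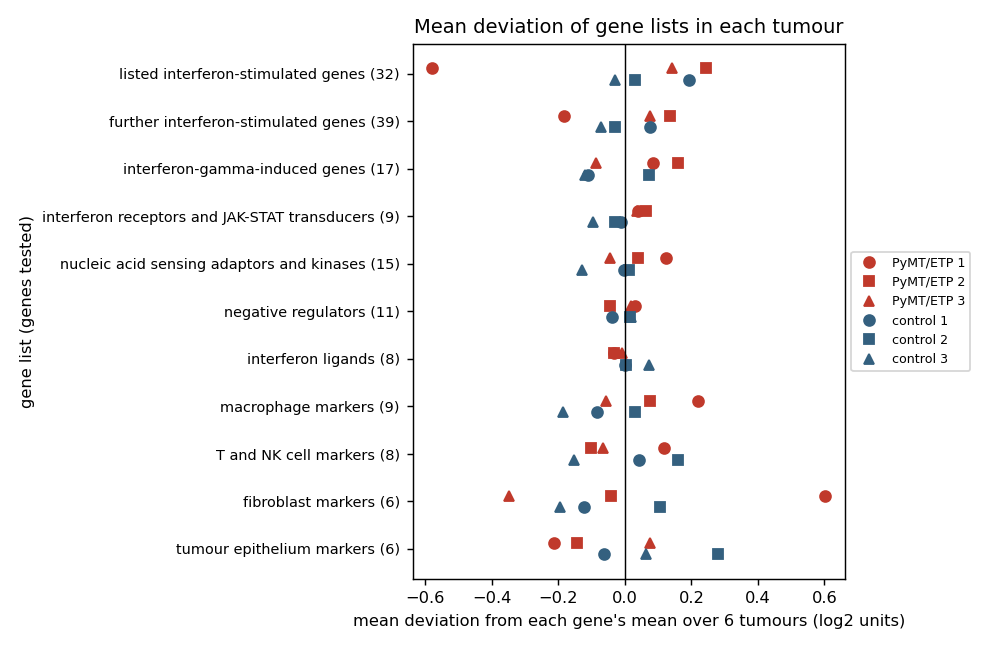
Mean deviation, in log2 units, of the tested genes of each list from their means over the 6 tumours, with PyMT/ETP tumours in red above PyMT control tumours in blue. PyMT/ETP replicate 1 (red circle) is at -0.58 for the 32 interferon-stimulated genes and at 0.60 for the fibroblast markers.

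Marker sums of fibroblasts, macrophages and tumour epithelium were at their highest or lowest in the same tumour, and those of the other cell types were not. Fibroblast markers, all 6 of them tested, were highest in PyMT/ETP replicate 1 for 5 genes, and their summed background-corrected intensity ran from 2763 to 5999 in PyMT/ETP tumours, highest in replicate 1, against 3336 to 4144 in PyMT control tumours. Macrophage markers, 9 of 10 tested, were highest there for 6 genes, and their sum ran from 5625 to 7058 in PyMT/ETP tumours, against 5293 to 5998 in PyMT control tumours. Tumour epithelium markers, all 6 tested, summed to 18947 in PyMT/ETP replicate 1, the lowest of the 6 tumours, within 18947 to 23104 in PyMT/ETP and 22676 to 27565 in PyMT control tumours. By gene, 3 of the 6 were lowest in PyMT/ETP replicate 1, against 16.2% of all genes. All PyMT/ETP tumours lay below all controls for 3 and above them for 1, against 3.65% and 4.52% of all genes. Limma called 0 of the 6. T and NK cell markers, 8 of 13 tested, summed to 1863 to 2587 in PyMT/ETP tumours, against 2494 to 2522 in PyMT control tumours. Their lowest sum was in PyMT/ETP replicate 2, and replicate 1 was within the control range. Plasmacytoid dendritic cells, a main source of type I interferon, had 2 of 4 markers tested, which summed to 46.8 to 59.4 in PyMT/ETP tumours and 34.6 to 60.5 in PyMT control tumours. Skin-like keratinocyte markers, 4 of 4 tested, summed to 502 to 536 in PyMT/ETP tumours, against 668 to 2596 in PyMT control tumours. Neutrophil markers, 4 of 6 tested, summed to 1726 to 2688, against 2096 to 5984. Both sums were highest in PyMT control replicate 3 and lowest in PyMT/ETP replicate 3. B cell (2 of 5), dendritic cell (2 of 5), endothelial (4 of 4) and adipocyte (2 of 4) markers each had sums of at most 333 in PyMT/ETP tumours and at most 415 in PyMT control tumours. The part of these differences in the level of the interferon-stimulated genes was not tested. In bulk tissue, fewer cells of a type and less RNA per cell cannot be told apart.

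The genes outside the lists whose profile over the 6 tumours was most like the mean deviation of the 32 genes were Fdxacb1, Zfp418 and Rdh12, with Pearson correlations of 0.967, 0.945 and 0.930 over 6 arrays. They were the first of 1556 genes that varied at least as much as the median of the 32, and none of the 10 most alike was in the lists. Fdxacb1 and Zfp418 were dim: in PyMT/ETP replicate 1 they were at 4.28 and 4.67 log2 units, where the background limit is 4.61. Rdh12 was at 5.67 there. The 6 arrays share 1 normalization, and the correlations are a description.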

How the data were processed

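RNA of 6 mammary tumours, taken up in Trizol, cleaned on columns and biotin-labelled, was hybridised to Illumina arrays, per the labels' protocols. The authors deposited 1 linear intensity for each of 45281 probes and 6 arrays. Their normalization, background treatment and software were not given in the sources used here. When the deposited intensity values of each array were sorted, the arrays differed by no more than 0.185, so their distributions had been equalised. A table with values before normalization was left aside: its 24 columns of values are named by chip and position, and no label ties these to samples, so chip could not be examined as a batch.

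The mode of the lowest 60% of all values gave the background, 86.1 with an SD of 4.83. It was removed by limma's normexp model, and values plus an offset of 16 were put on the log2 scale, which shrinks the fold changes of dim genes. A probe was kept if it exceeded 94.0, the upper 5% limit of the background, on 3 or more arrays. This kept 24893 probes for 12864 genes, and each gene was represented by its brightest kept probe. Probe names came from the platform annotation, updated through RefSeq: 34885 probes had 1 symbol, 18 had several and 10378 had none.

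The difference, PyMT/ETP minus PyMT control, was fitted over all genes by limma 3.58.1 under R 4.3.3, using lmFit and eBayes with group as the single factor. Tests were two-sided and p-values adjusted by Benjamini-Hochberg over all genes, with a threshold of 0.05. The fit was tested on simulated data. The alternatives were an offset of 50, no background correction, a stricter limit (97.3 on all 6 arrays), no filter, the mean of all probes, an intensity trend, array weights, cyclic loess, the replicate number as a block, and each array left out. Values per tumour were given for listed genes with a range of at least 1 log2 unit, for any with an unadjusted p under 0.05 (none had one), and for the brightest gene of each role. In the other pathway lists the 2 genes of smallest unadjusted p were named, and genes named outside these rules are said to be so. The values per tumour of Zbp1 and Ifi35 were given outside these rules, after they were seen. So were those of the dimmer Irf1 and Oasl2 probes. The listed genes, the other lists and the rules were chosen with earlier results of these data known. The number of arrays limits the precision.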

Additional observations from a re-analysis of the deposited data

How the results depend on the processing

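No interferon-stimulated gene was called under any of the alternatives. With 3 arrays a group, the median interval of 0.56 log2 units limits what could be seen. Other offsets, filters, probe rules, weights and scalings left the median log2 difference at -0.11 to -0.06. The replicate number as a block gave a median of -0.11, 8 genes higher, 24 lower and 0 called. Same-numbered tumours had correlations of deviations of -0.06, -0.06 and -0.11, against -0.01 to 0.07 for the other pairs. With 3 arrays a group, whose deviations sum to 0, these correlations cannot show whether the numbers pair the tumours. The labels do not say, and the numbers were treated as names. Leaving out 1 array moved the median between -0.21 and 0.12, turning it positive without PyMT/ETP replicate 1, and it was -0.04 without PyMT control replicate 1. The count of genes higher in PyMT/ETP tumours ran from 3 (without PyMT/ETP replicate 2) to 21 (without PyMT/ETP replicate 1), and the count lower from 11 to 29. Over all genes 0 to 16 were called, 16 of them without PyMT control replicate 1, and 0 under all other alternatives. The lowest value fell in PyMT/ETP replicate 1 for 24 of 30 genes to 27 of 36 under 6 alternatives chosen after seeing the data, with a median distance of -0.77 to -0.41. The difference of 23 of the 32 genes changed sign with 1 array left out, for 15 of them without PyMT/ETP replicate 1, and the cause was not tested. Its lowest and highest values with 1 array left out were -0.75 and 0.46 for Usp18, -0.56 and 0.67 for Rsad2, -0.45 and 0.48 for Ifit3, -0.71 and 0.21 for Oasl2, -0.68 and 0.35 for Mx2, and -0.65 and 0.047 for Oas1g. They were -0.0084 and 0.18 for Trim25, -0.11 and 0.15 for Irf1, -0.31 and 0.34 for Irf7, -0.13 and 0.10 for Irf9, -0.28 and 0.00096 for Stat2, -0.43 and 0.021 for Ddx58, and -0.40 and 0.18 for Dhx58. They were -0.19 and 0.46 for Oasl1, -0.15 and 0.0024 for Mx1, -0.053 and 0.16 for Gbp2, -0.38 and 0.21 for Gbp3, -0.10 and 0.42 for Igtp, and -0.17 and 0.095 for Irgm1. They were -0.15 and 0.14 for Ifitm3, -0.39 and 0.19 for Cmpk2, -0.19 and 0.021 for Eif2ak2, and -0.39 and 0.042 for Parp14. With the mean of all probes the sign turned for Trim25 (-0.014), Irgm1 (0.031) and Parp14 (0.079). With array weights it turned for Irf7 (0.042), Irf9 (0.020), Ifit3 (0.078) and Ifitm3 (-0.0099).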

Other observations

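Over all 12864 genes, ranked by how far PyMT/ETP replicate 1 lay below the other 5 tumours, Usp18 was 4th, Rsad2 7th, Oasl2 15th and Mx2 16th. The genes outside the list that ranked 1 to 6, named after their values were seen, were Prr9, Adm, Mgarp, Vegfa and Krt73. The keratin gene Krt73 was at 4.69, 4.99 and 4.51 log2 units in PyMT/ETP tumours, against 4.96, 9.14 and 10.16 in PyMT control tumours, so its rank rests on high values in PyMT control replicates 2 and 3. Prr9, which ranked first, was high in the same 2 controls, as were the keratin and kallikrein genes Krt90, Krt34, Klk6, Krt16 and Klk7 at ranks 8, 9, 12, 13 and 14. Vegfa, the vascular growth factor gene, was at 8.82, 9.98 and 12.28 in PyMT/ETP tumours, against 10.81, 10.54 and 10.81 in PyMT control tumours. Adm, which encodes adrenomedullin, was at 4.73, 6.01 and 8.35 in PyMT/ETP tumours, against 6.36, 7.41 and 7.73 in PyMT control tumours. Vegfa and Adm were highest in PyMT/ETP replicate 3, as were 8 of the 32 interferon-stimulated genes, among them Usp18, Rsad2 and Mx2, while 11 of the 32 were highest in PyMT/ETP replicate 2.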
